A study of Canis lupus familiaris with 10 samples.

Results

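Major histocompatibility complex (MHC) class II genes and the costimulatory gene CD86 were followed in visceral adipose tissue (VAT) of adult Beagle dogs before (Pre-ACTH) and after (Post-ACTH) prolonged stimulation of cortisol release. The 7 genes were CD74, DLA-DMA, DLA-DMB, DLA-DQA1, DLA-DQB1, HLA-DRB1 and CD86, out of 19856 genes listed in the count tables, and all 7 were among the 13577 genes that reached 10 reads in 1 or more libraries and were tested. They were picked from the study's supplementary list of genes that differed between Post-ACTH and Pre-ACTH in these same libraries, so their lower level in Post-ACTH was fixed by the choice and is described here without being taken as evidence. HLA-DRB1 is the name that the list gives to the canine DR beta gene, which RefSeq also lists as DLA-DRB1.

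Each of 5 dogs (3 males and 2 females) gave 1 library per group. Pre-ACTH tissue was untreated, and Post-ACTH tissue was taken from the same dogs after 25 weeks of tetracosactide, a synthetic ACTH analog released from osmotic pumps that were renewed at intervals of 4 weeks, at 1.3 to 1.95 μg/kg/day rising to 6 to 10 μg/kg/day. No untreated dogs were sampled at the later time, so treatment and the passage of time cannot be told apart. Dogs 1, 4 and 5 were males and dogs 2 and 3 females, numbered by animal ID. Libraries held between 8728330 and 14867529 counted reads, and the smallest was that of dog 3 in Pre-ACTH. Of the 7 adipocyte markers considered, only LIPE, the hormone-sensitive lipase, could be matched by symbol, with 19596 to 25067 normalized counts in Pre-ACTH and 27688 to 33574 in Post-ACTH. None of the listed markers of B cells, T cells, endothelium, mesothelium or lymph node was matched, and these cell types were not followed. Symbols came from the supplementary list, so a marker could be matched only if the study had found it to differ.

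Class II molecules are pairs of an alpha and a beta chain that carry peptides to the surface of dendritic cells, macrophages and B cells, where CD4+ T cells read them. CD74, the invariant chain, blocks the peptide groove while the pair travels to the endosome, and the DM pair then exchanges the remaining CD74 fragment for peptide. CD86 provides the second signal that T cells need, through CD28, and is itself not a class II molecule. In adipose tissue these genes are mainly known from resident macrophages and dendritic cells, and adipocytes can also express class II genes. In the RefSeq gene table of another dog assembly (UU_Cfam_GSD_1.0), DLA-DRA, HLA-DRB1, DLA-DQA1 and DLA-DQB1 were consecutive protein-coding genes, and DLA-DMB and DLA-DMA were neighbours further along the same chromosome, whereas CD74 and CD86 lay on other chromosomes.

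All 7 genes were lower in Post-ACTH in all 5 dogs, so that 35 of 35 gene-by-dog ratios were below 0 on the log2 scale, but the size of the change differed widely between animals. The median log2 fold change of the 7 genes was -1.54, beside a median of -0.0021 over all genes tested. In single dogs the median ratio of the 7 genes was -0.20 in dog 1, -1.44 in dog 2, -2.08 in dog 3, -2.72 in dog 4 and -1.70 in dog 5, a mean of -1.63 ± 0.93 (SD, n = 5 dogs). Dog 1 had the smallest change for each of the 7 genes, and dog 4 had the largest. In 13.5% of all genes tested the level was lower in all 5 dogs, and the share among the 7 genes was set by how they were chosen. Fewer cells of a type and less RNA per cell cannot be told apart in bulk tissue.

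With the dog as a block, none of the 7 genes passed FDR under 0.01 in edgeR's quasi-likelihood test, while 1.22% of all genes were called lower and 1.97% in either direction, and 6 of the 7 passed FDR under 0.05, at which 6.28% of all genes were called lower. All 7 had an unadjusted p under 0.05 in this test, as did 29% of all genes. DESeq2 with the same block called all 7 at FDR under 0.01, with 5.02% of all genes called lower, and limma-voom called none of them, with 1.53%. The study made its list with DESeq2, the animal as pairing factor and FDR under 0.01. The DESeq2 calls therefore repeat the choice of the 7 genes and are no further evidence. CD86 was the gene that missed FDR under 0.05 in edgeR. When dog 1 was left out, edgeR called 5 of the 7 at FDR under 0.01 (CD74, DLA-DMB, DLA-DQA1, DLA-DQB1 and HLA-DRB1), with 1.51% of all genes called lower, and the median log2 fold change was -1.89. Leaving out another dog left none of the 7 called, and the share of all genes called lower was then 0% (without dog 2), 0.0517% (dog 3), 0.599% (dog 4) or 0.126% (dog 5). Without the replicate block none was called (1.1% of all genes lower), and without a filter on low counts DLA-DQA1 and DLA-DQB1 were called (1.58%).

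**Figure D1:**
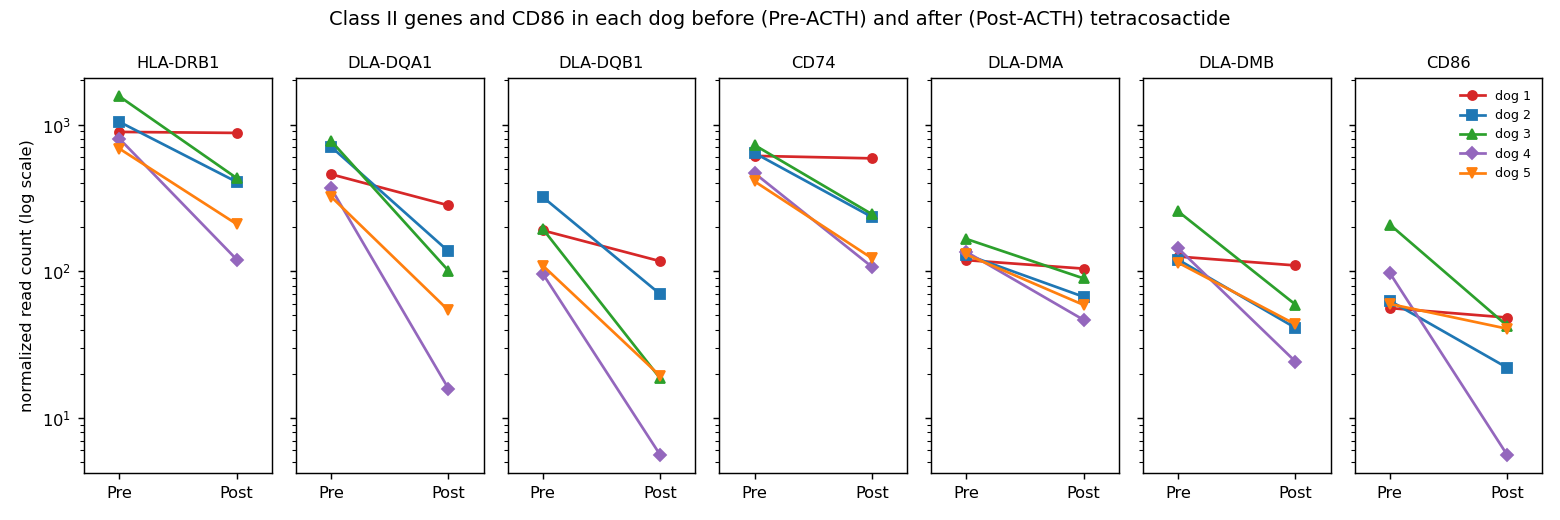
Normalized read counts (log scale) of the 7 genes in Pre-ACTH and Post-ACTH tissue, with 1 line per dog. The line of dog 1 is nearly flat for HLA-DRB1 (892 to 878) and CD74 (612 to 589), while dog 4 has the steepest line in every panel.

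HLA-DRB1 (ENSCAFG00000000806) encodes the beta chain of the DR molecule. Values are normalized counts, i.e., reads divided by the library total scaled with edgeR's TMM factor and multiplied by the mean library total. In Pre-ACTH they were 892, 1045, 1559, 803 and 687 in dogs 1 to 5, and in Post-ACTH 878, 407, 432, 120.2 and 209.6. The groups overlapped because the Post-ACTH value of dog 1 was above the Pre-ACTH values of dogs 4 and 5, and the other 4 Post-ACTH values were below all Pre-ACTH values. The group means were 997 ± 340.3 and 409 ± 293 (SD, n = 5). The log2 fold change was -1.52 (SE 0.33), and the log2 ratio was near 0 in dog 1 (-0.02) and lowest in dog 4 (-2.72).

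DLA-DQA1 (ENSCAFG00000000812), the alpha chain of the DQ molecule, showed the largest change of the 7 genes. Its normalized counts were 459, 707, 775, 369 and 323 in Pre-ACTH and 282, 136.8, 100.9, 15.8 and 54.1 in Post-ACTH, in dogs 1 to 5. The groups did not overlap, and the highest Post-ACTH value was again that of dog 1. The log2 fold change was -2.48 (SE 0.44), so 18.0% of the Pre-ACTH level remained. The log2 ratio was -0.70 in dog 1 and -4.38 in dog 4, with an SD of 1.32 over the dogs. The Post-ACTH value of dog 4 rested on 17 reads.

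DLA-DQB1 (ENSCAFG00000000814), the partner beta chain, had a similar log2 fold change. Its normalized counts were 190.0, 321, 194, 96.2 and 109.4 in Pre-ACTH and 117, 69.8, 18.6, 5.59 and 19.3 in Post-ACTH. The groups overlapped, since dog 1 in Post-ACTH exceeded dogs 4 and 5 in Pre-ACTH. The log2 fold change was -2.36 (SE 0.42) and the ratios lay between -0.69 in dog 1 and -3.69 in dog 4. The lowest Post-ACTH value, in dog 4, came from 6 reads, and those of dogs 3 and 5 from 21 and 20 reads.

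CD74 (ENSCAFG00000018101), the invariant chain that accompanies newly made class II pairs, had normalized counts of 612, 640.4, 725, 467 and 411 in Pre-ACTH and of 589, 234, 245, 107 and 122.7 in Post-ACTH. Dog 1 kept a Post-ACTH value within the Pre-ACTH range, and the other 4 dogs were below that range. The log2 fold change was -1.37 (SE 0.27), with ratios from -0.06 in dog 1 to -2.10 in dog 4.

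The DM pair catalyses peptide exchange and is not itself displayed as a classical class II molecule. DLA-DMA (ENSCAFG00000000848) had the smallest change and the most even levels, with 119, 129.8, 166, 136 and 130.2 normalized counts in Pre-ACTH and 104, 67.0, 89.4, 46.6 and 58.9 in Post-ACTH. The groups did not overlap, and the log2 fold change was -0.94 (SE 0.20), with ratios from -0.19 in dog 1 to -1.50 in dog 4. DLA-DMB (ENSCAFG00000032102) had normalized counts of 126, 120.1, 256, 144 and 115 in Pre-ACTH and of 109.6, 41.1, 59.3, 24.2 and 43.5 in Post-ACTH. Its groups did not overlap either, and the Pre-ACTH value of dog 3 lay apart from the other 4. For DLA-DMB the log2 fold change was -1.54 (SE 0.32), with ratios of -0.20 in dog 1 and -2.47 in dog 4.

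CD86 (ENSCAFG00000011751), the ligand of CD28 on T cells, had the largest SD of the log2 ratio between dogs (1.41). Its normalized counts were 56.1, 63.0, 208, 97.3 and 59.9 in Pre-ACTH and 48.4, 22.0, 42.5, 5.59 and 40.6 in Post-ACTH. The groups did not overlap, but the highest Post-ACTH value (dog 1) and the lowest Pre-ACTH value (also dog 1) were 48.4 and 56.1. CD86 had a log2 fold change of -1.59 (SE 0.50). The ratio was -0.21 in dog 1 and -0.54 in dog 5, compared with -1.44 in dog 2, -2.24 in dog 3 and -3.71 in dog 4, where 6 reads were left in Post-ACTH.

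The groups thus did not overlap for 4 of the 7 genes (DLA-DMA, DLA-DMB, DLA-DQA1 and CD86), and in 4.74% of all genes tested the Post-ACTH values were all below the Pre-ACTH values. Without dog 1 this was 7 of 7, against 8.51% of all genes, and without dog 2, 3, 4 or 5 it stayed at 4, against 6.26%, 6.82%, 7.1% and 6.74% of all genes. Leaving out a dog cannot lower such a count. These counts come from the contrast by which the genes were chosen and are no independent observation. HLA-DRB1, DLA-DQB1 and CD74 overlapped only through the Post-ACTH value of dog 1, so 7 of 7 without dog 1 was already given. With the counts of the 7 genes summed, the normalized total was 2662 ± 815 in Pre-ACTH and 993 ± 695 in Post-ACTH (SD, n = 5), and its log2 ratio was -0.21 in dog 1 and -2.70 in dog 4. HLA-DRB1 supplied 34.5% to 40.1% of these reads in Pre-ACTH and 37.0% to 43.7% in Post-ACTH, so the sum follows HLA-DRB1 more than the other genes.

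The change varied more between dogs for these genes than for most. The SD of the log2 ratio over the 5 dogs had a median of 0.98 for the 7 genes (range 0.48 for DLA-DMA to 1.41 for CD86), beside 0.31 over all genes tested and 0.38 over the 852 genes lower at FDR under 0.05. Among those 852 genes, dog 1 had the smallest change in 36.0% and dog 4 the largest in 30.8%, against 7 of 7 for both here. The median log2 ratio of the 852 genes was -0.68 in dog 1 and -0.95, -0.94, -0.95 and -0.77 in dogs 2 to 5, so dog 1 also had the smallest change there, by a narrower margin. The 852 genes were called on the same dogs and hold 6 of the 7 genes, and these shares were not tested. Their test weighs the change against its spread between dogs, so the calling itself favours a small SD. Neither set was matched to the 7 genes in level or size of change. The 7 genes also varied together over the libraries, as described below, so 7 of 7 does not stand for 7 separate observations.

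**Figure D2:**
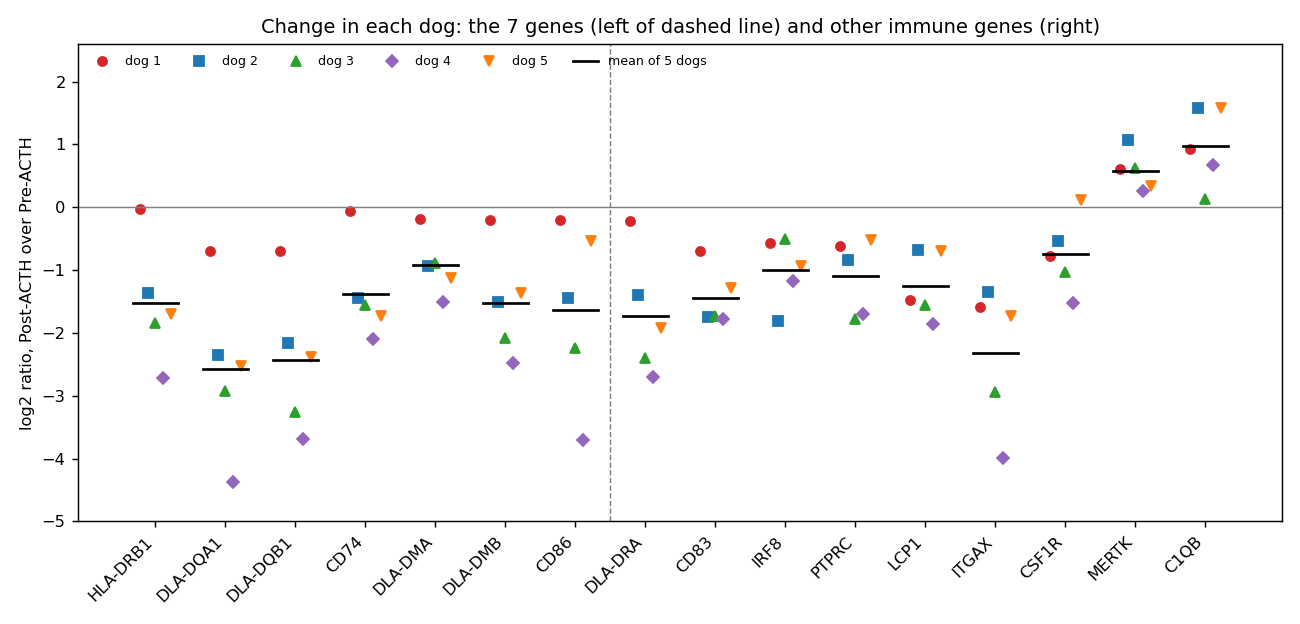
Log2 ratio of Post-ACTH over Pre-ACTH in each dog (symbols) and the mean of 5 dogs (bars) for the 7 genes, left of the dashed line, and for 9 other immune genes. Dog 1 sits nearest to 0 in all 7 genes, whereas LCP1 and ITGAX have log2 ratios of -1.48 and -1.58 in dog 1, and MERTK and C1QB were above 0 in every dog.

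Levels before and after treatment were ordered differently between dogs. In Pre-ACTH, dog 3 was highest for 6 of the 7 genes and dog 2 for DLA-DQB1. In Post-ACTH, dog 1 was highest and dog 4 lowest for all 7 genes, although before treatment dog 1 had held rank 3 for 5 genes and the lowest rank for DLA-DMA and CD86. The highest value exceeded the lowest by 1.39-fold (DLA-DMA) to 3.71-fold (CD86) in Pre-ACTH and by 2.24-fold (DLA-DMA) to 21.0-fold (DLA-DQB1) in Post-ACTH. The coefficient of variation was larger in Post-ACTH for all genes but CD86, for which it was 66.5% in Pre-ACTH and 55.6% in Post-ACTH.

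Whether dogs differed in their level over both times together was not what the genes were picked for and could be tested. The study's own comparison used the animal as pairing factor, so the test is not fully independent of the choice. In edgeR's quasi-likelihood test of the dog term, fitted beside treatment, none of the 7 genes passed FDR under 0.01 or under 0.05, at which 0.0368% and 0.265% of all genes were called. DLA-DQB1 (F = 5.04, adjusted p = 0.295) and CD74 (F = 4.63, adjusted p = 0.318) had an unadjusted p under 0.05, as did 14.1% of all genes tested. With limma-voom, none of the 7 passed FDR under 0.01 and 1 had an unadjusted p under 0.05, as did 14.3% of all genes. The lowest F values were those of DLA-DMA (1.26) and CD86 (1.39). This test sets differences between dogs against the spread of the change between dogs, which was wide for these genes. Differences between dogs that turn from Pre-ACTH to Post-ACTH can also cancel in it. Not being called therefore does not show that the dogs were alike.

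The change was also compared between the sexes by a sex-by-treatment term, with 3 males and 2 females. No gene of the 7 passed FDR under 0.01 or 0.05 or had an unadjusted p under 0.05 (edgeR quasi-likelihood test), and none of all genes passed either threshold, while 3.20% of all genes had an unadjusted p under 0.05. The fitted difference of the change (female minus male, log2) was -0.31 (SE 0.94) for DLA-DQA1 and -0.15 (SE 0.72) for HLA-DRB1. Standard errors of this size leave large differences in either direction possible. Both the smallest and the largest change were those of males, dogs 1 and 4.

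Reads of chains that pair with each other were set side by side within each library, in pairs chosen after the counts were seen. DLA-DQA1 took 70.7%, 68.8%, 79.9%, 79.3% and 74.7% of the reads of DLA-DQA1 and DLA-DQB1 together in dogs 1 to 5 in Pre-ACTH, and 70.6%, 66.2%, 84.4%, 73.9% and 73.7% in Post-ACTH. The log2 ratio of DLA-DQA1 differed from that of DLA-DQB1 by a mean of -0.14 ± 0.37 (SD, n = 5 dogs), and the order of the dogs was the same at both times, from dog 2 (lowest) to dog 3 (highest). For dog 2 the 95% Wilson interval was 66.0% to 71.5% in Pre-ACTH and 59.7% to 72.2% in Post-ACTH, and for dog 3 it was 76.8% to 82.8% and 77.4% to 89.6%, so these dogs were apart by more than counting error at both times. For dog 4 in Post-ACTH, with 23 reads of the pair, the interval ran from 53.5% to 87.5%, so its place in the order is uncertain. The Post-ACTH intervals of dog 1 (65.8% to 75.0%), dog 2 and dog 5 (62.8% to 82.3%) also overlapped. So did the Pre-ACTH intervals of dogs 1 and 2, and the order among these dogs is uncertain too. These intervals cover counting error only. DLA genes are highly polymorphic, and reads from an allele unlike the reference may not align, which would affect both samples of a dog alike and whose part in these shares was not tested.

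The DQ alpha chain was more strongly reduced than the DR beta chain in each of the 5 dogs. DLA-DQA1 took 31.5% to 40.4% of the reads of DLA-DQA1 and HLA-DRB1 together in Pre-ACTH and 11.6% to 25.2% in Post-ACTH, and the groups did not overlap. The log2 ratio of DLA-DQA1 minus that of HLA-DRB1 was between -0.68 (dog 1) and -1.66 (dog 4), with a mean of -1.05 ± 0.37 (SD, n = 5 dogs). In dog 1, whose HLA-DRB1 and CD74 had log2 ratios of -0.02 and -0.06, DLA-DQA1 and DLA-DQB1 were lower by 0.70 and 0.69 on the log2 scale. The DLA-DQA1 share beside HLA-DRB1 in dog 1 was 34.0% before (95% Wilson interval 31.5% to 36.5%) and 24.3% after (21.8% to 26.9%).

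HLA-DRB1 and CD74 had a mean difference of the log2 ratios of -0.15 ± 0.30 (SD, n = 5 dogs). The difference was 0.03, 0.08 and 0.02 in dogs 1, 2 and 5, -0.29 in dog 3 and -0.62 in dog 4. HLA-DRB1 took 59.3% to 68.2% of their joint reads in Pre-ACTH and 52.9% to 63.8% in Post-ACTH, and in dog 1 the share was 59.3% before and 59.9% after. In dog 4 the share was 63.2% before (95% Wilson interval 60.3% to 66.0%) and 52.9% after (46.6% to 59.0%). Within the DM pair, DLA-DMA took 48.6% of the reads in dog 1 before treatment and 48.7% after. In dogs 2 to 5 the DLA-DMA share was higher in Post-ACTH, moving from 51.9% to 61.9% in dog 2, from 39.3% to 60.1% in dog 3, from 48.5% to 65.8% in dog 4 and from 53.2% to 57.5% in dog 5. The 95% Wilson intervals of the shares before and after did not overlap for dog 3, and they overlapped for dogs 2, 4 and 5.

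**Figure D3:**
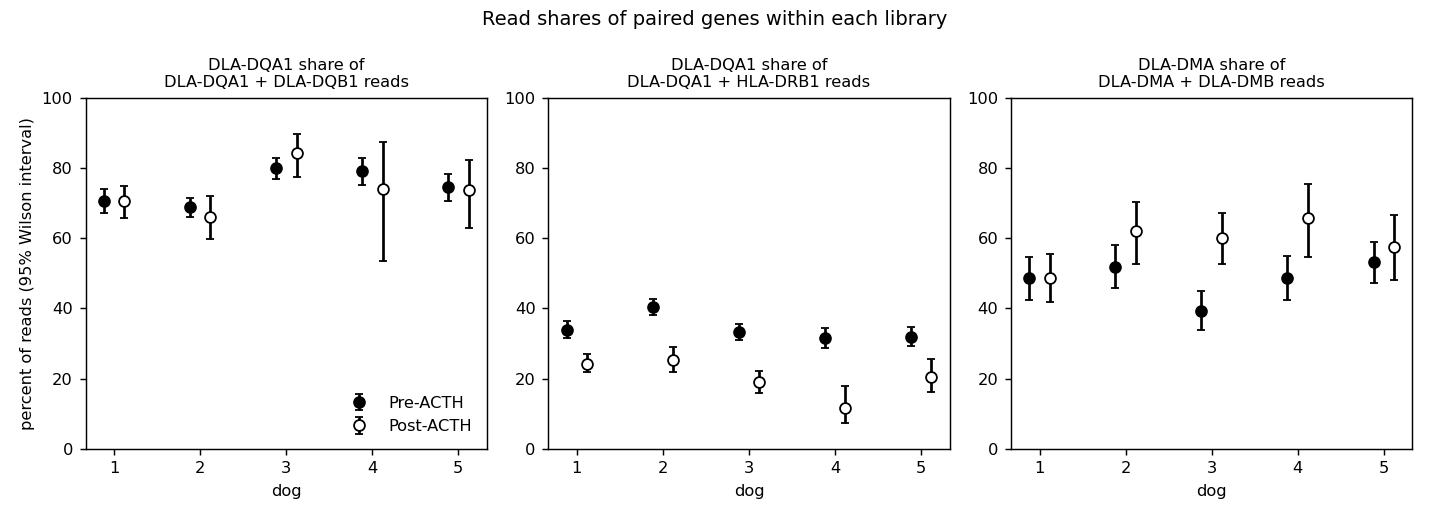
Percent of the reads of 2 genes that came from the first gene, in each dog, with filled points for Pre-ACTH, open points for Post-ACTH and bars for the 95% Wilson interval. The DLA-DQA1 share beside DLA-DQB1 keeps the order of the dogs, although intervals of several dogs overlap. The DLA-DQA1 share beside HLA-DRB1 is lower in Post-ACTH in all 5 dogs, and the DLA-DMA share is unmoved in dog 1 (48.6% and 48.7%).

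With the group means removed, the levels of the class II genes varied together over the 10 libraries. Pearson's r of log2 CPM (reads scaled to a common library total) was 0.97 between HLA-DRB1 and DLA-DQA1, 0.96 between HLA-DRB1 and CD74, and 0.93 within both the DQ and the DM pair. The lowest value among the class II genes was 0.62, between DLA-DQB1 and DLA-DMB. CD86 varied most closely with DLA-DMB (0.87) and DLA-DMA (0.81) and least with DLA-DQB1 (0.46) and CD74 (0.57). The 10 libraries come from 5 dogs and share dogs 1 and 4 as the extremes of Post-ACTH, so these values describe the libraries.

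**Figure D4:**
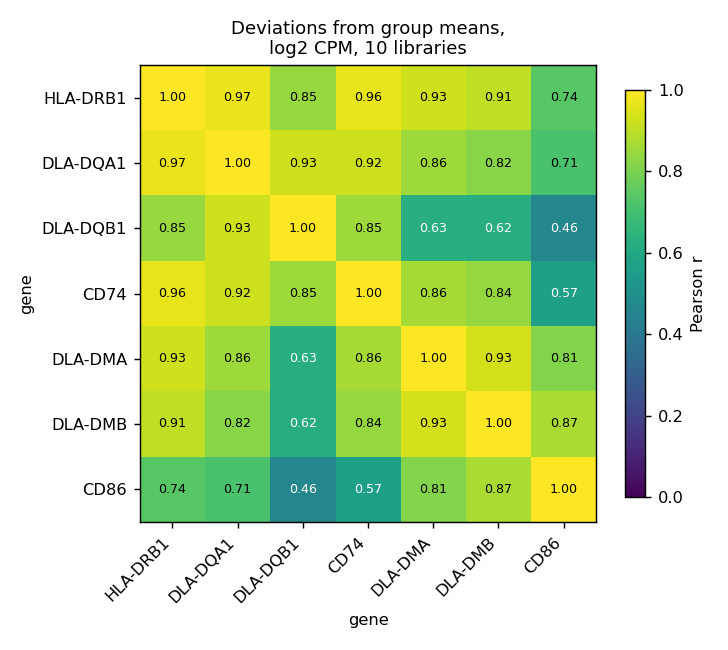
Pearson's r between the 7 genes over 10 libraries, from log2 CPM after each group mean was removed. HLA-DRB1, DLA-DQA1 and CD74 have values of 0.92 or more with each other, and CD86 ranges from 0.46 with DLA-DQB1 to 0.87 with DLA-DMB.

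The gene whose profile was most like the mean of the 7 standardized genes, out of all genes tested, was DLA-DRA (ENSCAFG00000000803), the alpha chain that pairs with HLA-DRB1 (r = 0.99 over 10 libraries, and 0.97 with group means removed). DLA-DRA is in the same supplementary list under the spelling DLA DRA, and was not among the 7. Its normalized counts were 564, 782, 1208, 527 and 568 in Pre-ACTH and 486, 295, 228, 79.2 and 149 in Post-ACTH, with ratios of -0.21 in dog 1 and -2.70 in dog 4 and no overlap between the groups. HLA-DRB1 took 54.7% to 61.3% of the joint reads of HLA-DRB1 and DLA-DRA in Pre-ACTH and 58.0% to 65.4% in Post-ACTH. The log2 fold change of DLA-DRA was -1.72 (SE 0.34), with an adjusted p of 0.0206 in the edgeR test, so that it was not called either, and it was called by edgeR without dog 1 (adjusted p of 0.00335). Of the other genes with a symbol, those among the 10 nearest in both rankings included DOCK10, a guanine nucleotide exchange factor of leukocytes (r = 0.98 and 0.95), CD180, a toll-like receptor relative of B cells and myeloid cells (0.97 and 0.92), and LIPA, the lysosomal acid lipase (0.97 and 0.94). ITGAV, DUSP16 and APOD were also in both, ITGAX, MAP3K20 and ADAM22 in the first only, and RAB20, Nox2 and FREM2 in the second only. Symbols were known only for genes in the supplementary list, and genes without one held ranks 3 and 4 of the first ranking. In the second ranking more unnamed genes came between, and the named genes ran from rank 1 (DLA-DRA) to rank 24 (DUSP16). CD180 held rank 15 there.

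Other genes of the presentation pathway could be followed only where that list names them, i.e., for genes that the study had found to differ in these libraries, so their direction is no independent observation. Matches were found for 1 of 14 further symbols of class II chains and peptide loading (DLA-DRA), 1 of 10 of class II transcription (IRF8), 2 of 16 of costimulation (CD83 and ICOS) and 4 of 9 of the CD1 family. For interferon gamma signalling (10 symbols) and class I presentation (18 symbols) there was no match. All matched genes were lower in Post-ACTH in all 5 dogs, and CD83, CD1A8 and CD1D were called by edgeR at FDR under 0.01. DESeq2 also called DLA-DRA, IRF8, ICOS, CD1B and CD1E at that threshold. The study's list was made with DESeq2 at the same threshold, so DESeq2 calls of matched genes repeat the matching. IRF8, a transcription factor of dendritic cells, macrophages and B cells, had 3512 to 4655 normalized counts in Pre-ACTH and 1321 to 3262 in Post-ACTH. Its log2 fold change was -0.99 (SE 0.19) and it was not called, with an adjusted p of 0.0183 in the edgeR test. The log2 ratio was smallest in dog 3 (-0.50), followed by dog 1 (-0.56), and largest in dog 2 (-1.82), an order unlike that of the class II genes.

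CD83, a surface protein of mature dendritic cells that is known to stabilise class II and CD86, had 95.7 ± 34.8 normalized counts in Pre-ACTH and 33.8 ± 12.3 in Post-ACTH (SD, n = 5). It fell, with a log2 fold change of -1.50 (SE 0.22) and an adjusted p of 0.00941 in the edgeR test. Its call held without dog 1 and was lost without dog 2, 3, 4 or 5, with adjusted p of 0.0459, 0.0432, 0.0250 and 0.0323, and without the block (0.0147). Dog 1 again had the smallest change (-0.70), while dogs 2, 3 and 4 were alike (-1.75, -1.74 and -1.78). ICOS, a costimulatory receptor of T cells, had 62.6 to 358 normalized counts in Pre-ACTH and 2.80 to 207 in Post-ACTH, and was not called (adjusted p of 0.0288 in the edgeR test). Its log2 ratios were -0.78, -1.99, -2.89 and -0.94 in dogs 1, 2, 3 and 5, and in dog 4 the 54 reads of Pre-ACTH were 3 reads in Post-ACTH.

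The CD1 molecules present lipids rather than peptides. CD1D had 119 ± 42.8 normalized counts in Pre-ACTH and 13.9 ± 6.94 in Post-ACTH (SD, n = 5), and it fell by 3.09 on the log2 scale (SE 0.33), with an adjusted p of 0.00382 in the edgeR test. CD1A8 had 48.7 ± 18.0 normalized counts before and 3.50 ± 3.85 after (SD, n = 5), with a log2 fold change of -3.93 (SE 0.43) and an adjusted p of 0.00395 in the same test. Both calls held without dog 1 or dog 4 and were lost without dog 2, 3 or 5, where the adjusted p of the edgeR test was between 0.0126 and 0.0237. In dog 1 the log2 ratio of CD1D was -2.34, and CD1A8 was left with 1 read, as in dogs 4 and 5, so CD1D and CD1A8 were lower also in the dog in which HLA-DRB1 and CD74 hardly differed. CD1B had 8 to 28 reads in each Pre-ACTH library and 0 reads in each Post-ACTH library. At FDR under 0.01 edgeR did not call CD1B (adjusted p of 0.0285). It was called by limma-voom (0.00373), DESeq2 (5.35e-06) and edgeR without the block (0.0057). CD1E had 17.4 to 50.7 normalized counts in Pre-ACTH and 1.91 to 19.3 in Post-ACTH. DESeq2 called CD1E (adjusted p of 0.00576) and edgeR did not (0.0529). The DESeq2 calls of CD1B and CD1E repeat the matching.

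Markers of the cells that carry class II were also followed, and LCP1 was the only one of them called by edgeR at FDR under 0.01. These too were matched only where the study had found them to differ in these libraries. Their directions and sums therefore do not stand for the marker lists as a whole. Calls of these markers by DESeq2 repeat the matching, since the study made its list with DESeq2 at FDR under 0.01. Of the 5 general leukocyte markers 4 were matched, with summed normalized counts of 821 to 1612 in Pre-ACTH and 301 to 734 in Post-ACTH, and LCP1, an actin-bundling protein of leukocytes, was called, with a log2 fold change of -1.26 (SE 0.19) and an adjusted p of 0.00988 in the edgeR test. The call of LCP1 was lost without any 1 of the 5 dogs (adjusted p of 0.0173, 0.0272, 0.0427, 0.0200 and 0.0237 without dogs 1 to 5 in that test). PTPRC, the pan-leukocyte CD45, had 202 to 499.9 normalized counts in Pre-ACTH and 77.3 to 177 in Post-ACTH, and its log2 fold change was -1.10 (SE 0.22), with an adjusted p of 0.0212 in that test (8.84e-05 with DESeq2). Of the 12 macrophage markers 3 were matched, and their summed normalized counts were 2139 to 3036 in Pre-ACTH and 2440 to 2982 in Post-ACTH. CSF1R, the receptor for the main macrophage growth factor, had a log2 fold change of -0.75 (SE 0.21), whereas MERTK, a receptor for the uptake of dying cells, and C1QB, a complement chain, had values of 0.58 (SE 0.12) and 1.00 (SE 0.23) and were higher in all 5 dogs. None of these 3 was called by edgeR at FDR under 0.01, and DESeq2 called all 3 (adjusted p of 0.00317, 0.00100 and 0.00163). Of the 9 dendritic cell markers 2 were matched, ITGAX (CD11c) with -2.25 (SE 0.38) and ZBTB46 with 0.70 (SE 0.11). Neither was called by edgeR at FDR under 0.01 (adjusted p of 0.0133 and 0.0122), whereas DESeq2 called both, as did edgeR without a filter on low counts (0.00778 and 0.00854), and edgeR without the block called ZBTB46 (0.00454). All of the matched markers had reads in every library, and their part in the lower class II level was not tested.

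Log2 ratios were also set against that of PTPRC within each dog. The ratios of DLA-DQA1 and DLA-DQB1 were below that of PTPRC in all 5 dogs, by a mean difference of -1.49 ± 0.97 and -1.35 ± 0.76 on the log2 scale (SD, n = 5), although by only -0.09 and -0.07 in dog 1. For HLA-DRB1 the mean difference was -0.44 ± 0.72, for CD74 -0.29 ± 0.69, for DLA-DMB -0.43 ± 0.52 and for CD86 -0.54 ± 0.92, each smaller than its SD, and for DLA-DMA it was 0.17 ± 0.56. In dog 1, HLA-DRB1, CD74, DLA-DMA, DLA-DMB and CD86 were all above PTPRC, by 0.41 to 0.59. Set against CSF1R, DLA-DQA1 and DLA-DQB1 were below in 4 of 5 dogs, with mean differences of -1.83 ± 1.15 and -1.69 ± 1.04, and in dog 1 they were above by 0.07 and 0.09, while HLA-DRB1 differed by -0.78 ± 0.95. Set against ITGAX, DLA-DMA was higher in all 5 dogs, by a mean of 1.39 ± 0.90. CD74, DLA-DMB, HLA-DRB1 and CD86 differed by 0.94 ± 0.92, 0.80 ± 0.70, 0.79 ± 0.73 and 0.69 ± 0.61, each below ITGAX in 1 dog. DLA-DQA1 and DLA-DQB1 differed by -0.26 ± 0.75 and -0.12 ± 0.71, each below ITGAX in 3 dogs. The choice of reference gene thus moved the values by more than 1 on the log2 scale, and these differences are given without a test.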

How the data were processed

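VAT RNA of 5 dogs was sequenced before and after treatment. The authors used STAR for alignment (CanFam3.1) and featureCounts for counting over Ensembl genes, and the deposited tables, 1 per sample, hold raw counts; versions, annotation release, strand setting and the handling of multi-mapping reads are not given in the sources used here. Reads shared between similar DLA genes or alleles could therefore be lost or split. The labels give poly-A selected stranded libraries with reads of 100 bp, while the paper describes ribosomal RNA depletion and another read length.

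The edgeR package (version 4.0.16, R 4.3.3) was run with TMM scaling, estimateDisp, glmQLFit and glmQLFTest, keeping genes that reached 10 reads in 1 or more libraries, with the dog as a block and Benjamini-Hochberg adjustment over all 13577 genes. The threshold was FDR under 0.01, after the study's methods. Depth was 8728330 to 14867529 reads, so values under about 20 reads are imprecise. SEs were derived from the F statistic. For ratios of single dogs and for correlations, log2 CPM values were computed (prior count 2). The script was tested on simulated data. Alternatives were DESeq2 1.42.0, limma-voom (limma 3.58.1), no block, other scalings, filters and thresholds, and fits without each dog. Non-overlap without each dog and the pairs of genes were chosen after seeing the data. Plots were drawn with matplotlib 3.10.9.

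Pairing came from the animal IDs. Deviations from the group means correlated between samples of the same dog by 0.077 (dog 4) to 0.41 (dog 2), and on average by -0.068 between different dogs. The highest value between different dogs was 0.21, above that of dog 4, so the pairing of dog 4 rests on its animal ID alone. No library was a copy of another, since the chi-square over genes divided by its degrees of freedom was 18.1 or more for each of the 45 pairs.

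The members and lists were chosen with earlier results of these data known. Symbols came from the study's supplementary list (names only), which names 1079 of its 1190 genes, and CD1A8 was named from its description. The fold changes and p-values in that list were not used. From the lists, genes called and a fixed set of others are named where a symbol was available, at most 4 called genes per list, and for likeness the 10 nearest genes with a symbol. IRF8, ICOS, CD1B, CD1E, MERTK, C1QB, ZBTB46 and LIPE were named after their values were seen. Transcript lengths were not used here, so levels are not compared between genes. No gene, protein or promoter sequence was used here, and the planned motif search was not run.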

Additional observations from a re-analysis of the deposited data

Results flagged for a closer look

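In 35 groups of 5 values checked for a sample far from the other 4, 4 were marked, and chance alone marks about 1 in 20. Dog 1 was high in Post-ACTH for CD74 (589 normalized counts, the others 107 to 245). Dog 3 was high in Pre-ACTH for DLA-DMB (256 normalized counts, the others 115 to 144) and for CD86 (208 normalized counts, the others 56.1 to 97.3). Dog 2 had the highest share of DLA-DQA1 in the reads of DLA-DQA1 and HLA-DRB1 in Pre-ACTH (40.4%, the others 31.5% to 34.0%).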

How the results depend on the processing

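The median log2 fold change of the 7 genes was -1.54 and stayed between -1.56 and -1.45 under the other scalings, filters and tools and without the block, and between -1.89 (without dog 1) and -1.24 (without dog 4) when a dog was left out. All 7 kept their direction in every alternative. How many of the 7 were called at FDR under 0.01 (0 with edgeR) was 2 without a filter on low counts, 7 with DESeq2, 6 at FDR under 0.05 and 0 to 5 when a dog was left out, with 5 only without dog 1. The 7 calls of DESeq2 repeat the choice of the genes, which the study had listed with that tool. Without the replicate block, 0 of the 7 and 262 of all genes were called, beside 268 with it. Over all genes, 438 were called without a filter, 1180 with DESeq2, 1509 at FDR under 0.05, and 318, 1, 12, 117 and 23 without dogs 1, 2, 3, 4 and 5. For the dog term, 5 genes were called, 15 without a filter, 1 with limma-voom, 36 at FDR under 0.05 and 1 to 8 without a dog. Of the 7 genes, 4 to 7 had no overlap between groups when a dog was left out, 7 being without dog 1, an alternative chosen after seeing the data. Among the 18 matched genes of the lists no direction turned, and over all alternatives a call was lost 18 times (CD83, CD1A8, CD1D and LCP1) and gained 20 times. Calls gained with DESeq2 repeat the matching. The causes were not tested. The Post-ACTH values of DLA-DQB1 and CD86 in dog 4 rest on 6 reads each and are the least precise.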
